A study of Homo sapiens with 6 samples.

Results

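CXCL10 and 8 other genes induced by interferon (IRF1, IRF7, IFIT1, IFIT3, ISG15, MX1, OAS1 and IFI6) were followed across 3 human multiple myeloma lines, each split into a CD24+ and a CD24- fraction. The genes were read from every probe set annotated to 1 of them alone, which gave 12 of 54675 probe sets on the array and 9 of 19775 genes with a probe set of their own. CXCL10 was chosen by its measured level, which was high in OCI-MY5, and the other 8 were chosen as genes known to answer interferon. The differences of OCI-MY5 from the other lines are therefore given for these 9 genes as a description, with no test.

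Multiple myeloma is a cancer of antibody-secreting plasma cells. OCI-MY5, OPM2 and ARP1 are established lines grown from it, and the labels name no genetic change or drug treatment in any of them. All were cultured in the same serum-containing medium and separated in a flow cytometer by staining for CD24, a heavily glycosylated surface antigen. The CD24+ fractions, which the submitters regard as cancer stem cells, and the CD24- fractions each held 3 samples, 1 array per line. A line thus had 2 arrays, and these 2 served as its replicates in comparisons between lines. No label says that a line was cultured or sorted more than once, so p-values measure the spread between these arrays, which may be in part technical. RNA came from bulk fractions, where fewer cells expressing a gene and less RNA of it per cell cannot be told apart.

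CXCL10 is a secreted chemokine that draws activated T cells and natural killer cells through the receptor CXCR3. Type I and type III interferons bind their receptors, activate JAK kinases and, through a complex that contains IRF9, turn on genes with an interferon-stimulated response element, the ISRE. Interferon gamma acts through another receptor and another promoter element, the GAS, and induces the transcription factor IRF1. The CXCL10 promoter also answers NF-kappaB, the factor activated by inflammatory cytokines, while most antiviral genes depend chiefly on the ISRE.

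Sequences upstream of the genes are shown because interferon and NF-kappaB act on such genes through short promoter elements. They came from RefSeq (GRCh38.p14), where 8 of the 9 genes had a promoter entry, 11 entries in all, with no entry matched for IRF7. The 250 bases before each annotated start were searched on both strands for GAAANNGAAA (the core of the ISRE), GGGANNNNCC (an NF-kappaB-like motif) and TTCNNNGAA (the GAS). The CXCL10 promoter is written 5′ to 3′ on the strand of the gene, with the ISRE core and both NF-kappaB-like matches in capitals.
CXCL10 at chr4:76023498-76023747 (- strand): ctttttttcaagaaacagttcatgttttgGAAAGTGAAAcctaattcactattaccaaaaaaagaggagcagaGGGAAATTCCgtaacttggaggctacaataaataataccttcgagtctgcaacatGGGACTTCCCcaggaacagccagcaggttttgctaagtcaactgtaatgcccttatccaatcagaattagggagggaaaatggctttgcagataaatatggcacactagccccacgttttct

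In that window the ISRE core stood 221 to 212 bases before the start. The NF-kappaB-like matches stood at 177 to 168 and at 122 to 113, and the nearer one read the same motif on both strands. Of 35116 promoters searched in the same way, 3.02% held the ISRE core, 22.6% the NF-kappaB-like motif and 0.481% both. Among the 8 genes with a promoter entry, 6 held an ISRE core match. They are set side by side with the core in capitals on whichever strand it was found.
CXCL10 at chr4:76023696-76023731 (- strand): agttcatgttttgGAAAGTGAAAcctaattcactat
IFIT3 at chr10:89327828-89327897 (+ strand): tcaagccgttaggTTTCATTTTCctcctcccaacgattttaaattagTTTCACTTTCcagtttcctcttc
IFIT3 at chr10:89332422-89332500 (+ strand): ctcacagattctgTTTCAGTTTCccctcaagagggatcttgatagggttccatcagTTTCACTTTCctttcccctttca
IFIT1 at chr10:89392494-89392529 (+ strand): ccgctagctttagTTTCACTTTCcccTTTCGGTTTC
ISG15 at chr1:1013371-1013406 (+ strand): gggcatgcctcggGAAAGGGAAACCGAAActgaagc
IFI6 at chr1:27672263-27672361 (- strand): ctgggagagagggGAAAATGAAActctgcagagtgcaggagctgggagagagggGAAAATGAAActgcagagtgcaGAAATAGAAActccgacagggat
MX1 at chr21:41431841-41431876 (+ strand): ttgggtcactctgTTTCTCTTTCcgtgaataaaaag

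The core of CXCL10, GAAAGTGAAA, recurred on the opposite strand as TTTCACTTTC in both IFIT3 entries and in IFIT1. IRF1 and OAS1 had no match to the letters GAAANNGAAA in the window. The OAS1 window did hold GAAACGAAA near its end, with 1 base between the GAAA repeats, which those letters do not count. An MX1 entry at chr21:41425989-41426238 held the same stretch on the opposite strand, as TTTCGTTTC, and was likewise not counted. The MX1 match shown above came from another entry, the only MX1 entry with a match to the ISRE core. The GAS letters occurred in IRF1, OAS1 and 1 of the MX1 entries, against 6.57% of all promoters. The NF-kappaB-like letters occurred in CXCL10, IRF1, IFI6 and MX1. A match describes the letters and does not show that a factor binds there. Lack of a match likewise does not show that an element is absent.

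Values are MAS5 intensities, a background-corrected brightness per probe set that the authors scaled to a common trimmed mean on each array. Differences were taken on log2(intensity + 16), which understates the change of dim genes. TrpnX probe sets, which detect a bacterial transcript, served as negative controls, with intensities of 2.23 to 96.4 over the 6 arrays. They numbered 3, and the 96.4 came from the OPM2 CD24+ array. Their highest values were 39.3 and 45.5 in CD24+ and CD24- cells of OCI-MY5. They were 61.3 in OPM2 CD24-, and 10.3 and 64.5 in CD24+ and CD24- cells of ARP1. A value inside the range over all arrays was not told apart from background, although some such values exceeded every control on their own array. A gene entered the tests when its brightest probe set averaged at least 6.36 on the log2 scale, and 12078 genes did. The plasma cell markers checked were above the controls on all arrays in 8 of 9 cases, including CD38 and XBP1, and CD27 was not. CD24 itself gave no check of the sort, since 4 of 36 values over its 6 probe sets lay above the control range and the highest was 140.3. The OPM2 CD24+ array stood apart, with a median intensity of 135 against 68.9 to 84.0 on the others and spike-in controls at 37362 against 6175 to 7399. The ACTB 3′ to 5′ ratio, a sign of RNA integrity, was 9.36 and 23.2 in CD24+ and CD24- cells of OCI-MY5, 27.1 and 7.54 in those of OPM2, and 2.63 and 2.47 in those of ARP1.

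The chemokine itself was very bright in OCI-MY5 and at background elsewhere. CXCL10 (204533_at, gene at chr4:76021118-76023497 in GRCh38.p14) read 7959.6 and 4757 in CD24+ and CD24- cells of OCI-MY5. It read 21.9 and 10.8 in CD24+ and CD24- cells of OPM2, and 10.2 and 2.49 in those of ARP1. Both OCI-MY5 arrays were far above the other 4, all of which lay inside the range of the negative controls. The geometric mean of OCI-MY5 was 63.9-fold the brightest control, so CXCL10 was at least 63.9-fold higher there than in the other lines. On the log2(intensity + 16) scale OCI-MY5 exceeded the mean of the other lines by 7.86, a 233-fold ratio on that scale, which was the first rank of 12078 genes. The next were the immunoglobulin heavy chain locus IGH at 6.69 and the gap junction gene GJA1 at 4.74. CXCL10 passed the brightness limit through OCI-MY5 alone. OPM2 and ARP1 were not compared for CXCL10, since both lay at background.

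Summed over each of 4 lists, markers of other cell types were not highest in OCI-MY5. Summed intensity over 8 monocyte and macrophage markers was 2365 and 1586 in CD24+ and CD24- cells of OCI-MY5, 4800 and 2476 in those of OPM2, and 868 and 711 in those of ARP1. CD14, CD163, S100A8 and S100A9 were within the control range on all 6 arrays, while CLEC7A, the receptor dectin-1, was above it on all 6. The monocyte and macrophage sums came mostly from CLEC7A and say little about the other markers. Over 7 dendritic cell markers the sums were 944 and 944 in CD24+ and CD24- cells of OCI-MY5, 795 and 324 in those of OPM2, and 1473 and 1542 in those of ARP1. The only one of these above the controls in OCI-MY5 was BATF3, a transcription factor. The sums of OCI-MY5 and ARP1 came mostly from BATF3. Over 10 T and natural killer cell markers the sums were 402 and 262 in CD24+ and CD24- cells of OCI-MY5, 829 and 384 in those of OPM2, and 5673 and 7281 in those of ARP1. CD3D, CD3G, NKG7 and TRAT1 were within the control range on all 6 arrays, and the ARP1 sums came mostly from GNLY, a cytolytic granule protein. Over 10 stromal and endothelial markers the sums were 792 and 727 in CD24+ and CD24- cells of OCI-MY5, 1355 and 792 in those of OPM2, and 608 and 818 in those of ARP1. COL1A1, a collagen gene and the 1 stromal marker above the controls on all 6 arrays (217430_x_at), read 352 and 369 in CD24+ and CD24- cells of OCI-MY5, 204 and 300.1 in those of OPM2, and 181 and 347 in those of ARP1. Both OCI-MY5 arrays of COL1A1 were above the other 4, and the difference of 0.50 did not pass (limma's adjusted p = 0.325).

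**Figure D1:**
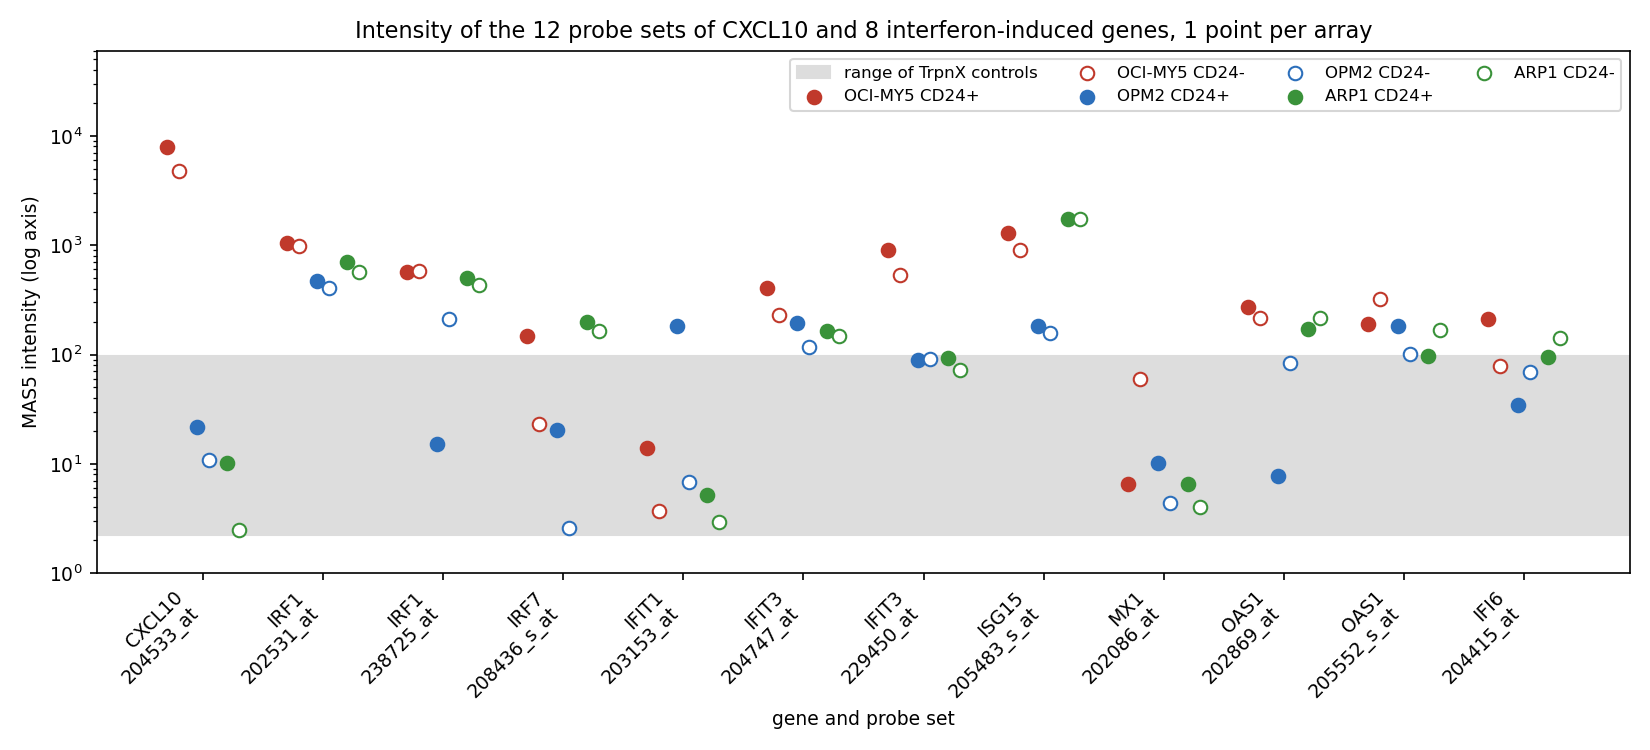
MAS5 intensity (log axis) of each of the 12 probe sets, with 1 point per array, filled for CD24+ and open for CD24-, and the TrpnX control range of 2.23 to 96.4 shaded. CXCL10 lies at 4757 and above in OCI-MY5 and inside the shaded range on the other 4 arrays, and no other probe set has such a gap.

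The transcription factors differed far less. IRF1 activates interferon-gamma targets, and its brightest probe set (202531_at) read 1045 in CD24+ and 978 in CD24- cells of OCI-MY5, against 472 and 403 in the same fractions of OPM2 and 695 and 569.8 in those of ARP1. The arrays of the 3 lines did not overlap, in the order OCI-MY5, ARP1, OPM2. OCI-MY5 exceeded the mean of the others by 0.93, or 1.90-fold. OPM2 minus ARP1 was -0.51, which did not pass (limma's adjusted p = 0.117). The second probe set of IRF1 (238725_at) read 574 and 575 in CD24+ and CD24- cells of OCI-MY5, 15.3 and 213 in those of OPM2, and 498 and 428 in those of ARP1, and kept that order.

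IRF7 is the factor that amplifies type I interferon, and it was not highest in OCI-MY5. Its probe set (208436_s_at) read 149 in CD24+ and 22.9 in CD24- cells of OCI-MY5, against 20.3 and 2.58 in the same fractions of OPM2 and 198 and 165 in those of ARP1. Both ARP1 arrays exceeded the other 4, and 3 arrays were inside the control range. IRF7 stayed below the brightness limit. Both OPM2 arrays of IRF7 lay inside the control range, so its level there was at least 1.88-fold lower than in ARP1. In a fit of all probe sets that comparison had limma's adjusted p at 0.118 and did not pass.

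Among the antiviral effectors IFIT3 came closest to CXCL10. IFIT proteins bind viral RNA, and IFIT3 works in a complex with IFIT1 and IFIT2. The probe set 229450_at of IFIT3 read 895 and 539 in CD24+ and CD24- cells of OCI-MY5, 90.0 and 90.5 in those of OPM2, and 92.8 and 72.3 in those of ARP1. Both OCI-MY5 arrays were above the other 4, which overlapped and lay inside the control range, and the difference was 2.80, or 6.97-fold. Over the 6 arrays, which fall into 1 bright pair and 4 dim ones, the correlation of this probe set with CXCL10 was 0.99. The other probe set (204747_at), brighter on the log2 scale and so the one fitted for the gene, read 409 in CD24+ and 231 in CD24- cells of OCI-MY5, against 193 and 117 in the same fractions of OPM2 and 165 and 147 in those of ARP1. It put OCI-MY5 higher by only 0.93, so the probe sets of IFIT3 differed in size while placing both OCI-MY5 arrays above the other 4. OPM2 and ARP1 overlapped on both.

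IFIT1, the partner of IFIT3, was at background in OCI-MY5. Its probe set (203153_at) read 13.9 and 3.71 in CD24+ and CD24- cells of OCI-MY5, 183 and 6.87 in those of OPM2, and 5.18 and 2.92 in those of ARP1. The OPM2 CD24+ array, the one with high spike-ins, was the sole value above the controls. MX1, a GTPase that blocks viral replication, read 6.48 in CD24+ and 59.8 in CD24- cells of OCI-MY5, against 10.1 and 4.40 in the same fractions of OPM2 and 6.54 and 4.05 in those of ARP1 (202086_at). All 6 values lay inside the control range, though the 59.8 of OCI-MY5 CD24- exceeded the controls of its own array, which reached 45.5. Neither gene reached the brightness limit. By the range over all arrays, MX1 and IFIT1 were not told apart from background in the line with the high CXCL10.

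ISG15 is a ubiquitin-like protein that is induced by interferon and attached to other proteins. Its probe set (205483_s_at) read 1294 and 911 in CD24+ and CD24- cells of OCI-MY5, 182 and 158 in those of OPM2, and 1748 and 1748 in those of ARP1. The lines did not overlap, and ARP1, where CXCL10 was at background, had the highest values. OCI-MY5 was 2.57 above OPM2 and 0.68 below ARP1 on the log2 scale. OPM2 fell below ARP1 by 3.25 on that scale with limma's adjusted p at 0.00164, and the comparison passed. Over all genes 14.8% were called lower in OPM2 than in ARP1 and 10.1% higher.

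OAS1 makes the messenger that activates the RNA-degrading enzyme RNase L. Its probe set 205552_s_at read 190.2 in CD24+ and 321 in CD24- cells of OCI-MY5, against 183 and 100.2 in the same fractions of OPM2 and 96.2 and 168 in those of ARP1. OCI-MY5 was above the other 4 arrays by a small margin, with a difference of 0.83. The probe set 202869_at read 274 and 215 in CD24+ and CD24- cells of OCI-MY5, 7.77 and 82.9 in those of OPM2, and 172 and 215 in those of ARP1, where OCI-MY5 and ARP1 overlapped. The probe sets thus disagreed on whether OPM2 or ARP1 was the lower line. For the fitted one, OPM2 minus ARP1 was 0.08 (limma's adjusted p = 0.900).

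IFI6, a mitochondrial and endoplasmic reticulum protein induced by type I interferon, read 209.8 in CD24+ and 79.0 in CD24- cells of OCI-MY5, against 34.6 and 68.6 in the same fractions of OPM2 and 95.7 and 141 in those of ARP1 (204415_at). OCI-MY5 and ARP1 overlapped and both OPM2 arrays were below them. For IFI6, 4 of the 6 values lay inside the control range, including both of OPM2. Only the OPM2 CD24+ value lay below the brightest control of its own array. The difference of OCI-MY5 from the mean of the others was 0.65, and it rested on the CD24+ array, being 0.029 without it and 1.28 without the CD24- array. OPM2 and ARP1 did not pass the test for IFI6 (limma's adjusted p = 0.196).

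Of the 12 probe sets, 6 had both OCI-MY5 arrays above the other 4. By gene this held for 4 of the 6 tested (CXCL10, IRF1, IFIT3 and OAS1), against 16.2% of all 12078 genes tested, and nothing is read from it because CXCL10 was selected on this contrast. Beside the 7.86 of CXCL10, the other 11 probe sets differed by -0.60 (IFIT1) to 2.80 (IFIT3). By rank among all genes, ISG15 was at 986, IFIT3 at 1014, IRF1 at 1031, OAS1 at 1245 and IFI6 at 1789. The place of IFIT3 depended on which probe set stood for it. Its difference of 0.93 became 1.87 with the mean of both probe sets and 0.54 without the OCI-MY5 CD24+ array. Without either ARP1 array or the OPM2 CD24+ array it was 2.72 to 2.88. In those fits 229450_at became the brighter probe set and stood for the gene. The 0.83 of OAS1 became 0.48 without the OCI-MY5 CD24- array.

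The wider interferon system was then described through lists outside the 9 genes, each beside the share of all genes called in the same comparison. Their adjusted p-values come from limma over all 12078 genes. OCI-MY5 minus the mean of the other lines was called higher for 6.84% of all genes and lower for 6.2%. Both OCI-MY5 arrays were below the other 4 for 14.7% of genes.

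No interferon transcript stood out in OCI-MY5. Of 18 interferon genes with a probe set of their own (type I, gamma and lambda), 0 entered the tests. In CD24+ and CD24- cells, 0 and 1 of them exceeded the brightest control in OCI-MY5, 5 and 1 in OPM2, and 1 and 0 in ARP1. The OCI-MY5 value above it was IFNA17 at 113 in CD24- cells. OPM2 CD24+ held the most, with IFNA17 at 273, and is the array with the raised median.

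Receptors, kinases and IRF9 made up 10 tested genes, of which 1 was called higher and 1 lower in OCI-MY5. JAK1, a kinase shared by all interferon receptors (201648_at), read 5302 and 5335 in CD24+ and CD24- cells of OCI-MY5, 2977 and 3079 in those of OPM2, and 3417 and 3319.9 in those of ARP1. Its difference was 0.73 with limma's adjusted p at 0.0328. The probe sets of JAK1 did not all share this. On 1552610_a_at the OCI-MY5 arrays overlapped the others, with differences of 1.08 from OPM2 and -1.39 from ARP1. On 1552611_a_at both OCI-MY5 arrays were above all others, by 0.76. IFNGR2, a chain of the interferon-gamma receptor (201642_at), read 306 in CD24+ and 326 in CD24- cells of OCI-MY5, against 673 and 954 in the same fractions of OPM2 and 1072 and 841 in those of ARP1. OCI-MY5 fell by 1.42 for IFNGR2 (limma's adjusted p = 0.0199), and its arrays did not overlap the others. The other 8 did not pass, with differences of -0.68 (IFNLR1), -0.50 (IRF9), -0.50 (IFNAR1), -0.37 (IFNAR2), -0.07 (JAK2), 0.04 (IL10RB), 0.20 (TYK2) and 0.29 (IFNGR1).

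Of 4 other IRF genes tested, 1 was called higher in OCI-MY5. IRF2, which binds the same elements as IRF1 (203275_at), read 1193 and 1307 in CD24+ and CD24- cells of OCI-MY5, 191 and 391 in those of OPM2, and 786 and 524 in those of ARP1. The difference was 1.53 (limma's adjusted p = 0.0457). IRF5, a factor downstream of Toll-like receptors (239412_at), read 949 in CD24+ and 887 in CD24- cells of OCI-MY5, against 10.8 and 78.7 in the same fractions of OPM2 and 1094 and 964 in those of ARP1. Both OCI-MY5 arrays lay just below those of ARP1 for IRF5, and both OPM2 arrays lay inside the control range, at least 10.7-fold lower than ARP1 (limma's adjusted p = 0.00844). IRF3 differed by -0.03 and IRF4, the plasma cell factor, by -0.67, and neither passed. IRF8 was below the brightness limit.

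Of 13 sensing genes tested, TRAF3, an adaptor of RNA sensing and a brake on noncanonical NF-kappaB, was the 1 called higher, by 0.98 (limma's adjusted p = 0.0369). Another 3 were called lower. ZBP1, a sensor of Z-form nucleic acid (208087_s_at), read 41.7 and 31.4 in CD24+ and CD24- cells of OCI-MY5, 238 and 203 in those of OPM2, and 184 and 124 in those of ARP1. On this probe set ZBP1 lay inside the control range in OCI-MY5, at least 1.89-fold lower than the geometric mean of the other lines. On another ZBP1 probe set (242020_s_at) the geometric mean of OPM2 was 185, while both ARP1 arrays lay inside the control range. No bound against ARP1 can be given there. STING1, the adaptor of DNA sensing, fell by 1.57 and MAVS, the adaptor of RNA sensing, fell by 0.75 (limma's adjusted p = 0.019 and 0.0499, and 0.0105 for ZBP1). Of the 13 sensing genes, 4 had both OCI-MY5 arrays below the other 4, with ZBP1, STING1 and MAVS among them. Another 3 had both above, with TRAF3 among them. Over all genes these shares were 14.7% below and 16.2% above. None of the 10 negative regulators was called by limma at the adjusted threshold, and their median was 0.07 against a median near 0 over all genes tested.

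Of 35 other antiviral genes tested, 9 were called higher in OCI-MY5 and 1 lower, with a median of 0.51. Both OCI-MY5 arrays were above the other 4 for 12 of the 35 and below for 0, against 16.2% and 14.7% of all genes. Highest were UBE2L6 at 2.69 and HERC5 at 2.51, the conjugating enzyme and the ligase that attach ISG15 to proteins. UBE2L6 (201649_at) read 1433 in CD24+ and 1430.5 in CD24- cells of OCI-MY5, against 85.4 and 42.6 in the same fractions of OPM2 and 646 and 624 in those of ARP1. HERC5 (219863_at) read 499 and 474 in CD24+ and CD24- cells of OCI-MY5, 5.78 and 21.1 in those of OPM2, and 269 and 248 in those of ARP1. In both, OCI-MY5 was above ARP1, and ARP1 above OPM2, without overlap. Against ARP1 alone, UBE2L6 and HERC5 differed by 1.15 and 0.87 and did not pass (limma's adjusted p = 0.105 and 0.16). PLSCR1, a phospholipid scramblase with antiviral action, followed at 1.84 and ISG20, an RNA exonuclease, at 1.58 (limma's adjusted p = 0.00715, 0.00787, 0.00974 and 0.0103 in the order named). EPSTI1 was the 1 called lower, and it fell by 1.07 (limma's adjusted p = 0.021). EPSTI1 (227609_at) read 105 in CD24+ and 127 in CD24- cells of OCI-MY5, against 486 and 577 in the same fractions of OPM2 and 124 and 126 in those of ARP1, so it was high in OPM2, and against ARP1 alone it differed by -0.10 (limma's adjusted p = 0.809). ISG20 (33304_at) read 1980.3 and 1583 in CD24+ and CD24- cells of OCI-MY5, 179 and 151 in those of OPM2, and 2064 and 1871 in those of ARP1, so it was low in OPM2 rather than high in OCI-MY5 alone. The count of 9 changed when single arrays were left out. The number called among all genes changed with it, so this change was not particular to the antiviral list.

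The interferon-gamma and IRF1 genes called in OCI-MY5 were led by genes low in OPM2. Of 20 genes tested, 5 were called higher in OCI-MY5 and 0 lower at the adjusted threshold in limma, with a median of 0.15. Both OCI-MY5 arrays were above the other 4 for 2 of the 20 and below for 1, against 16.2% and 14.7% of all genes. VAMP5, a vesicle protein, differed by 1.99, the immunoproteasome subunit PSMB9 by 1.83, NMI by 1.71 and the inflammatory caspase CASP4 by 0.76 (limma's adjusted p = 0.00867, 0.00624, 0.035 and 0.0468). VAMP5 (204929_s_at) read 611 in CD24+ and 642 in CD24- cells of OCI-MY5, against 18.6 and 31.0 in the same fractions of OPM2 and 721 and 562 in those of ARP1. PSMB9 (204279_at) read 5226 and 4759 in CD24+ and CD24- cells of OCI-MY5, 383 and 443 in those of OPM2, and 4426 and 4866 in those of ARP1. For both genes OCI-MY5 and ARP1 overlapped and OPM2 lay far below, inside the control range for VAMP5. The count of 5 likewise changed when single arrays were left out, along with the number called among all genes.

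**Figure D2:**
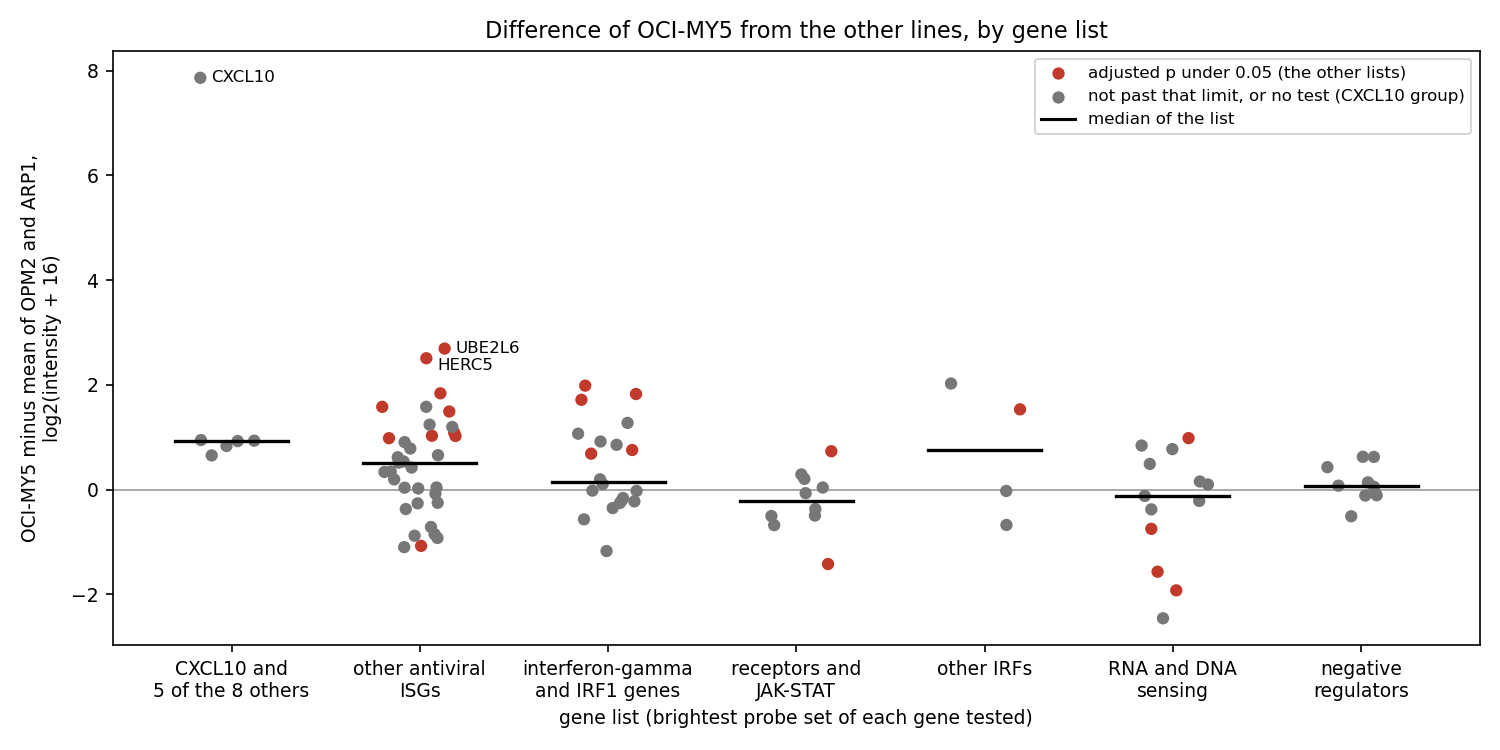
OCI-MY5 minus the mean of OPM2 and ARP1 on log2(intensity + 16), 1 point per tested gene and list, with red for an adjusted p under 0.05 in the lists other than the CXCL10 group and a black bar at each median. CXCL10 lies at 7.86, while the highest gene of the other lists shown is UBE2L6 at 2.69.

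Each other line was therefore set against OCI-MY5 on its own, in a fit that takes its spread from all 3 lines. Against OPM2 alone, 12 of the 35 antiviral genes were called higher and 1 lower, where 14.7% of all genes were called higher and 11.4% lower. Of the 20 interferon-gamma and IRF1 genes, 8 were called higher and 1 lower. Against ARP1 alone, 2 antiviral genes were called higher, PLSCR1 and SAMD9L, and 2 lower, while no interferon-gamma or IRF1 gene was called in either direction at limma's adjusted threshold. In that comparison 0.836% of all genes were called higher and 1.78% lower. The medians of the antiviral list were 0.80 against OPM2 and 0.18 against ARP1, and those of the interferon-gamma and IRF1 list 0.48 and 0.01. PLSCR1 was the 1 antiviral gene called against both lines, as were 0.472% of all genes. PLSCR1 (202446_s_at) read 4005 in CD24+ and 3767 in CD24- cells of OCI-MY5, against 763 and 1064 in the same fractions of OPM2 and 1392 and 1178 in those of ARP1.

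OPM2 and ARP1, both with CXCL10 at background, differed from each other in these lists. Of the antiviral genes, 10 were called lower in OPM2 than in ARP1 and 2 higher, with a median of -0.35, and of the interferon-gamma and IRF1 genes 10 were lower and 1 higher, with a median of -0.84. Over all genes tested 14.8% were called lower and 10.1% higher, and the median was -0.04. PSMB9 fell by 3.44 and ISG20 fell by 3.46 in OPM2 on the log2 scale (limma's adjusted p = 0.000814 and 0.000975). VAMP5 and HERC5 lay inside the control range in OPM2, at least 6.60-fold and 2.68-fold lower than in ARP1 (limma's adjusted p = 0.000975 and 0.00292). Both counts of 10 fell without either array of ARP1, as did the number called among all genes. The interferon-induced membrane proteins IFITM1 and IFITM3, which block virus entry, were also lower in OPM2 (limma's adjusted p = 0.0035 and 0.0057). IFITM1 differed by -3.66, and IFITM3, inside the control range in OPM2, was at least 8.93-fold lower. IFITM1 (214022_s_at) read 995 and 1174 in CD24+ and CD24- cells of OCI-MY5, 692 and 345 in those of OPM2, and 5950.1 and 6869 in those of ARP1, so here too the line with the highest CXCL10 was not the highest. The IFITM probe sets can bind transcripts of more than 1 family member. The 3 comparisons between lines share arrays and are not independent of one another.

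**Figure D3:**
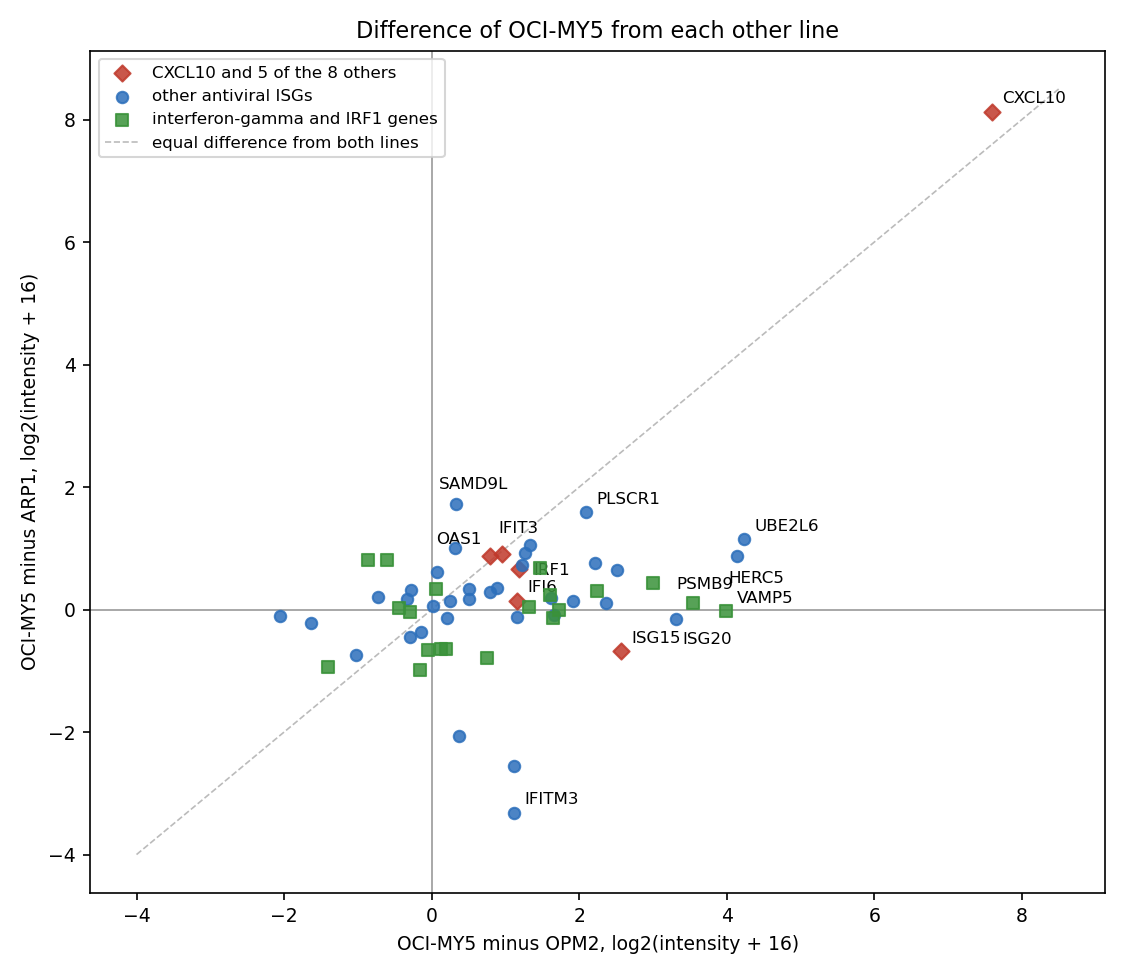
Difference of OCI-MY5 from OPM2 (horizontal) and from ARP1 (vertical) on log2(intensity + 16), 1 point per tested gene of 3 lists, with the dashed line marking equal differences. CXCL10 lies near the dashed line at 7.60 and 8.13, while VAMP5, PSMB9 and ISG20 lie far to the right at a vertical position near 0.

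Some genes that respond to interferon were not told apart from background in any line. Every probe set stayed within the control range on all 6 arrays for 7 of 48 antiviral genes, among them USP18 and IFI44L, which were named after their values were seen. The same was true of 4 of 30 interferon-gamma genes, counted without CXCL9 and CXCL11, and GBP1, a GTPase, was one of them with all its probe sets. The matching share over all genes was not counted, so nothing particular to interferon genes is read from these counts. Dim genes were common, since 12078 of 19775 genes reached the brightness limit.

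The closest relatives of CXCL10 did not share its level in OCI-MY5. CXCL9 and CXCL11 bind the same receptor, CXCR3, and are classic targets of interferon gamma. CXCL9 (203915_at) read 22.0 in CD24+ and 8.0 in CD24- cells of OCI-MY5, against 206 and 78.6 in the same fractions of OPM2 and 7.02 and 11.4 in those of ARP1. CXCL11 (210163_at) read 68.0 and 52.5 in CD24+ and CD24- cells of OCI-MY5, 4.03 and 20.0 in those of OPM2, and 14.8 and 8.75 in those of ARP1. The OCI-MY5 arrays of CXCL11 were above the other 4, but all 6 lay inside the control range. Both OCI-MY5 values exceeded the controls of their own arrays, which reached 39.3 in CD24+ and 45.5 in CD24- cells. The second probe set of CXCL11 (211122_s_at) read 99.3 in CD24+ and 19.1 in CD24- cells of OCI-MY5, against 60.5 and 18.6 in the same fractions of OPM2 and 62.3 and 1.20 in those of ARP1. CXCR3 was inside the control range on all 6 arrays with both its probe sets. Of 23 other chemokines with a probe set of their own, 15 were within the control range on every array by the brightest probe set. That share was not counted over all genes. Of the 23, 1 was bright enough to be tested. That one, CCL5, a T cell chemokine (204655_at), read 1254 and 1586 in CD24+ and CD24- cells of OCI-MY5, 8.12 and 22.1 in those of OPM2, and 1478 and 1724 in those of ARP1. OCI-MY5 and ARP1 overlapped, and both OPM2 arrays lay inside the control range, at least 16.6-fold lower than ARP1 (limma's adjusted p = 0.000754).

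Genes whose profile over the 6 arrays was most like that of CXCL10 were sought among 291 tested genes whose spread was at least 0.5 of the CXCL10 spread. Pearson correlations were 0.96 for IGH, 0.93 for SASH3, 0.86 for LIN7A, 0.85 for MALRD1, 0.80 for ID3, 0.77 for DOCK10, 0.75 for MIR146A and 0.70 for PCDHB5. These are descriptions over 6 arrays of 3 lines, where any gene bright in OCI-MY5 alone scores high. The limit on spread set aside interferon genes with a smaller range whatever their correlation. By the brightest probe set it was 0.97 for JAK1 (201648_at), 0.94 for PLSCR1, 0.90 for TRAF3 and 0.87 for IRF1. Their absence from the 8 is therefore no sign that they do not follow CXCL10. SASH3, a lymphocyte adaptor (204923_at), read 1157 in CD24+ and 1355 in CD24- cells of OCI-MY5, against 86.6 and 16.3 in the same fractions of OPM2 and 72.2 and 139 in those of ARP1. The probe set annotated to MIR146A, a microRNA gene that NF-kappaB induces, read 1602 and 1358 in CD24+ and CD24- cells of OCI-MY5, 9.83 and 4.47 in those of OPM2, and 339 and 258 in those of ARP1 (232504_at).

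No difference between CD24+ and CD24- cells in these genes passed the test. In limma's comparison of the fractions 0 of 12078 genes passed, which is 0% of genes, while 149 had an unadjusted p under 0.05. CXCL10 was 0.74 higher in CD24+ than in CD24- cells of OCI-MY5 on the log2 scale, from 1 array each. In OPM2 and ARP1 both fractions lay inside the control range, so no difference of CXCL10 was measured there. IRF1 averaged 0.20 ± 0.09, IFIT3 0.53 ± 0.33 and ISG15 0.23 ± 0.25 (SD, n = 3 lines each), and none passed in either fit. OAS1 averaged -0.22 ± 0.86 and IFI6 0.00 ± 1.08 (SD, n = 3 lines each), with lines on both sides of 0, and most IFI6 values were inside the control range. IRF1 (202531_at) and IFIT3 (204747_at) were higher in CD24+ cells in every line, as were 16.9% of all genes tested. ISG15 was higher in CD24+ cells of OCI-MY5 and OPM2 and read 1748 in both fractions of ARP1. Centring each array on its median moved the median of all genes to -0.30, and IRF1 and ISG15 then averaged -0.13 and -0.10. The CD24+ array of OPM2, with its raised median, enters every OPM2 difference and none of those in OCI-MY5 and ARP1.

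**Figure D4:**
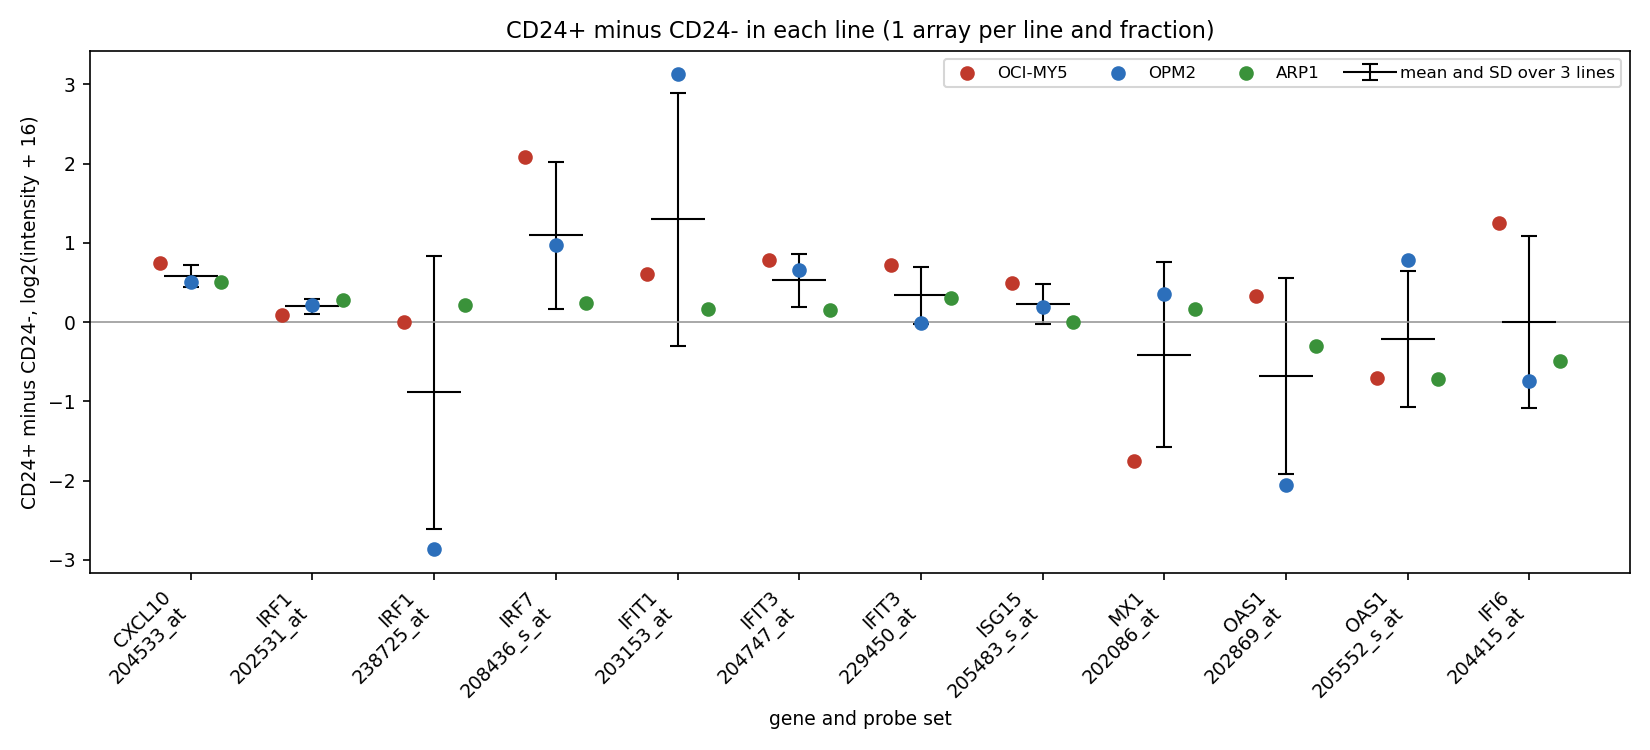
CD24+ minus CD24- on log2(intensity + 16) for each of the 12 probe sets, 1 point per line, with black bars at the mean and SD over the 3 lines. CXCL10 lies at 0.74 in OCI-MY5, and its points for OPM2 and ARP1 come from values inside the control range, as do many of the other points. In this plot the widest spreads belong to IRF1 238725_at and IFIT1, where OPM2 stands apart at -2.87 and 3.12.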

How the data were processed

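Total RNA of the sorted fractions was read on Affymetrix U133 Plus 2.0 chips. Per the submitters' processing notes the authors used Affymetrix Expression Console 1.1, and they deposited MAS5 intensity on a linear scale, 1 value per probe set and array. The trimmed mean was 500.1 on every array. Of 54675 probe sets 62 were controls and stayed out, 41091 had 1 gene symbol, 1801 had several and 11721 had none. Symbols of 41037 were brought up to date through RefSeq, and only those with 1 symbol were named.

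Intensities were used as log2(intensity + 16). The probe set with the highest mean log2 value stood for its gene, and 12078 genes averaging at least 6.36 (the median over probe sets) entered limma 3.58.1, run in R 4.3.3 with moderated two-sided tests and Benjamini-Hochberg adjustment at 0.05. Where both arrays of the dimmer line lay inside the control range, a lower bound on the fold is given, the geometric mean of the brighter line over the brightest control. The code was tested on simulated data. Groups followed the CD24 label and the cell line label. The replicate numbers, 1 to 3, are the lines. The deviations of same-numbered arrays from their group means correlated at 0.706 for OCI-MY5, 0.768 for OPM2 and 0.704 for ARP1, and those of different lines at -0.579 to 0.146. The numbers therefore pair the arrays. No pairing is stated in the design text, so the line as a block was an alternative fit.

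The 9 genes and the lists were chosen with earlier results of these data known. Named were all probe sets of the 9 genes, the interferon ligands, receptors, kinases and other IRFs, CXCL9, CXCL11 and CXCR3, up to 4 genes per list with the highest and the lowest OCI-MY5 difference past the threshold, and the 8 genes most correlated with CXCL10. Genes outside that rule (SAMD9L, IFITM1, IFITM3, GJA1, COL1A1 and those at background) were named after their values were seen. Some genes of the pathway were not analysed here. Alternatives were pseudocounts of 1 and 64, other brightness limits, quantile normalization, median centring, other probe set rules, a fraction covariate, single lines and leaving out arrays or lines. Plots used matplotlib 3.10.9 in Python 3.11.15.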

Additional observations from a re-analysis of the deposited data

Results flagged for a closer look

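In a pair of genes the fractions moved in opposite directions in different lines, by at least 0.5 each way. For IFI6 (204415_at) CD24+ minus CD24- was 1.25 in OCI-MY5 and -0.74 in OPM2 on the log2 scale, a gap of 1.99, and ARP1 followed OPM2 at -0.49. Of the 6 IFI6 values, 4 lay inside the range of the negative controls, both of OPM2 among them, so the OPM2 difference was not told apart from background. For OAS1 (205552_s_at) it was 0.78 in OPM2 and -0.72 in ARP1, a gap of 1.49, and OCI-MY5 followed ARP1 at -0.71. Each line had 1 array per fraction, so these differences were not tested. The OPM2 CD24+ array, with the high spike-ins, enters both.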

How the results depend on the processing

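Between the fractions 0 genes were called in limma with and without the cell line as a replicate block, and 0 under each other setting; without 1 array or 1 line the count was also 0. CXCL10 exceeded the other lines by 9.24 with a pseudocount of 1, by 6.37 with 64 and by 7.74 to 7.99 without 1 array of OPM2 or ARP1. CXCL10 gave no value without either OCI-MY5 array or with a stricter limit (the 75th percentile), since it was then too dim. Centring moved the median of all genes to 0.26 for OCI-MY5 and to -0.30 for OPM2 minus ARP1.

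The 1575 genes called for OCI-MY5 became 365 with no brightness limit, 838 with centring, 1049 with the mean of all probe sets, 991 with a fraction covariate, 3150 against OPM2 alone, 316 against ARP1 alone and 54 to 3176 without 1 array. The 3018 genes called between OPM2 and ARP1 became 1430 with no limit, 1867 with centring and 680 to 4229 without 1 array.

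The 9 antiviral genes called higher in OCI-MY5 became 4 with no limit, 2 against ARP1 alone and 0 to 15 without 1 array. The 5 interferon-gamma and IRF1 genes became 2 with a pseudocount of 1, no limit or the mean of all probe sets, 3 with every probe set on its own or the covariate, 8 with a pseudocount of 64 or against OPM2 alone, 0 against ARP1 alone and 0 to 9 without 1 array. Lower in OPM2 than in ARP1 were 4 to 12 antiviral and 2 to 12 interferon-gamma and IRF1 genes without 1 array, and 6 of the second list with no limit or the mean of all probe sets.

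ISG15 of OCI-MY5, a difference with no test, was -0.68 against ARP1 alone. The other directions that turned belonged to differences that had not passed a test. For CD24+ minus CD24-, centring gave -0.13 for IRF1, -0.10 for ISG15 and -0.33 for IFI6, quantile normalization -0.0094 for ISG15 and -0.21 for IFI6, the mean of all probe sets -0.34 for IRF1 and a pseudocount of 1 -0.042 for IFI6. Leaving out 1 array or line, which makes the lines unequal between the fractions, gave -0.84 to 2.05 for CXCL10, -0.090 to 0.53 for IRF1, -0.15 to 0.86 for IFIT3, -0.73 to 1.21 for ISG15, -0.58 to 0.42 for OAS1 and -0.62 to 0.55 for IFI6. For OPM2 minus ARP1, IFIT3 was 0.035 with the mean of all probe sets and -0.046 to 0.28 without 1 array. OAS1 was -0.071 with quantile normalization, -0.18 with centring, -1.01 with the mean of all probe sets and -1.08 to 0.47 without 1 array. The lowest of these came without the OPM2 CD24+ array, where 202869_at became the brighter probe set of OAS1 and stood for it. Fits without 1 array or line chose the brightest probe set anew, so IFIT3 and OAS1 were not always read from the same one. With all arrays kept, limma's adjusted p for OAS1 was 0.0704 to 0.931.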
